A study of Mus musculus with 2 samples.

Results

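The cells described here are mouse blood-forming cells in which Pf4, the platelet chemokine platelet factor 4, held at least 0.3% and less than 1% of a cell's transcripts. They were chosen by that share alone. A barcode was kept as a cell where it held no fewer than 1000 UMIs (unique molecular identifiers, which count captured transcripts) and 500 genes and where mitochondrial genes took no more than 10% of the UMIs. They numbered 990 of 6134 kept cells in the DMSO library (16.1%, exact 95% interval 15.2 to 17.1) and 460 of 3798 in the RO-3066 library (12.1%, 11.1 to 13.2), or 1450 of 9932 in all. Below they are called intermediate cells, and are set against the low cells with less than 0.3% (4680 and 3074 cells) and the high cells with 1% or more (464 and 264).

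The study profiled hematopoietic stem cells of mice, labelled as coming from blood and kept in suspension for 48 h either in RO-3066 or in DMSO, the solvent used as vehicle, by 10x Genomics 3' single-cell sequencing. The labels give no strain, age, dose or target of RO-3066, and the culture and the 48 h are what both groups share. There was 1 library per treatment, so no difference has a replicate check, none was tested, and the intervals given are exact and cover counting error only. Differences between libraries therefore cannot be told apart from differences between the cultures or the preparations.

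Megakaryocytes are the large, polyploid cells that shed platelets. They load granules with proteins such as Pf4 and von Willebrand factor, carry the receptors by which platelets stick to vessel walls and to fibrinogen, and are driven by the transcription factors Gata1, Fli1 and Gfi1b. In mice, part of the hematopoietic stem cell pool already transcribes some of these genes, which is known as megakaryocyte or platelet priming, and stem cell genes such as Hlf and Mecom are shut down as cells commit.

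The kept cells of the 2 libraries held 187975416 and 171691773 UMIs, with medians of 24352 and 35175 per cell. Depth moved with the Pf4 share. Low, intermediate and high cells had medians of 22745.5, 30080 and 61239.5 UMIs in DMSO and of 30494.5, 75694 and 90608.5 in RO-3066, so that intermediate cells held 1.32 times the UMIs of low cells in DMSO and 2.48 times in RO-3066, and those of RO-3066 held 2.52 times the UMIs of those of DMSO. Likely doublets, called from simulated doublets and kept in the sums, made up 7.78% (6.19 to 9.63) of the intermediate cells in DMSO and 6.09% (4.08 to 8.68) in RO-3066, against 4.53% and 2.63% of the low cells and 2.80% and 3.41% of the high cells. The libraries shared 6 kept barcodes. The median mitochondrial share lay between 1.46% and 1.72% in all 6 groups of cells.

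**Figure D1:**
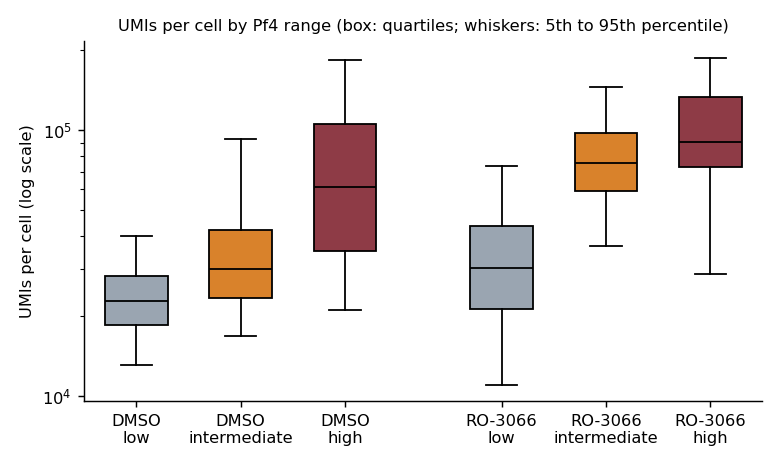
UMIs per cell (log axis) in the low, intermediate and high cells of each library, as boxes of the quartiles with the median and whiskers from the 5th to the 95th percentile. Intermediate cells have a median of 30080 UMIs in DMSO, between those of low and high cells, and of 75694 in RO-3066.

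The Pf4 share itself, which defined the cells and is given only to describe them, had a median of 0.505% in the intermediate cells of DMSO and 0.541% in those of RO-3066, or 155 and 400.5 Pf4 UMIs per cell. There was no gap at either limit. The nearest shares on either side of the lower limit were 0.2991% and 0.3002% in DMSO and 0.2993% and 0.30006% in RO-3066, and on either side of the upper limit 0.9998% and 1.0004%, and 0.9996% and 1.0005%. Within 10% of the lower limit lay 86 cells below and 87 above in DMSO, and 47 and 41 in RO-3066. At the upper limit the counts were 74 and 46 in DMSO and 46 and 37 in RO-3066. The intermediate cells are thus a range of a continuous share, and whether they form a type of their own was not tested.

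**Figure D2:**
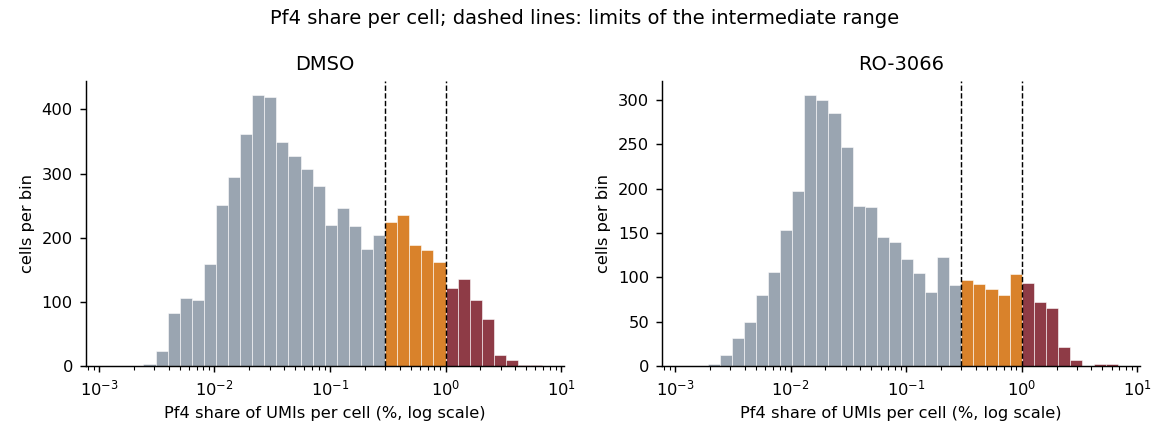
Number of kept cells by Pf4 share of UMIs (log axis) in each library, with dashed lines at 0.3% and 1% and the intermediate cells in orange. Cells without a Pf4 UMI (117 in DMSO and 134 in RO-3066) are not drawn; the shares run without a break across both limits.

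Levels are given as CPM, the counts of a gene scaled to 1000000 UMIs summed over the cells of a group, and groups of 3 values stand for low, intermediate and high cells in that order. The other 2 genes that mark the cells, Itga2b and Gata1, followed Pf4. Itga2b encodes CD41, the alpha chain of the platelet fibrinogen receptor, and was at 68.6, 259.7 and 431 CPM in DMSO and at 149.8, 429.5 and 568 CPM in RO-3066. Intermediate cells thus held 3.79-fold (3.68 to 3.9) the level of low cells in DMSO and 2.87-fold (2.8 to 2.93) in RO-3066. Gata1, the factor that drives megakaryocyte and red cell genes, was at 8.88, 37.1 and 52 CPM in DMSO and 19.8, 51.8 and 61.5 CPM in RO-3066. Its ratio of intermediate to low cells was 4.18-fold (3.85 to 4.53) in DMSO and 2.61-fold (2.46 to 2.78) in RO-3066, and in each library its level in intermediate cells lay nearer to that of high cells than to that of low cells. These ratios moved with depth: as log2 ratios, Gata1 had 1.95 over all DMSO cells, 2.07 in cells of 15000 to 40000 UMIs and 1.05 in cells of 40000 to 120000 UMIs, and in RO-3066 1.34, 2.74 and 0.64. Itga2b had 1.91, 1.71 and 1.26 in DMSO and 1.51, 2.08 and 1.05 in RO-3066. The part of depth in these ratios was not tested.

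Because the groups differ in depth, the share of cells with a UMI of a gene was counted after thinning each cell to 10000 UMIs, which left out 7 intermediate cells of DMSO, 1 of RO-3066 and 72 and 120 low cells. Itga2b was then found in 86.4% (84.1 to 88.5) of intermediate DMSO cells and 95.9% (93.6 to 97.5) of intermediate RO-3066 cells, against 39.9% and 57.1% of low cells. Without thinning the shares were 98.0% and 99.8%, against 61.9% and 79.0%. Gata1 was found in 30.5% (27.7 to 33.5) and 38.8% (34.3 to 43.4) of thinned intermediate cells and in 6.73% and 10.6% of low cells (64.9%, 94.1%, 13.1% and 25.6% without thinning). Both genes together were found in 25.7% and 37.7% of thinned intermediate cells and in 4.14% and 8.94% of low cells. The markers are therefore present, though at the depth of thinned cells most intermediate cells lacked a Gata1 UMI.

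The promoter windows of these genes, from 250 bases before the start of the gene to 50 after it, are shown because the cells were defined by 1 of these genes and named by the other 2, and because Ppbp, the nearest neighbour of Pf4, had another pattern (below). They are from RefSeq on GRCm38.p6, each written 5' to 3' on the strand of its gene. Capitals mark GATA words and ETS words, 6-base runs that contain the core letters bound by factors of those families, found on either strand. The GATA words searched were AGATAA and AGATAG and the same words with a T in place of the first A. The ETS words were AGGAAG and CGGAAG, and no GATA word shared bases with an ETS word. The windows lie at chr5:90772185-90772484 (plus strand) for Pf4, chr5:90768268-90768567 (plus) for Ppbp, chr11:102469834-102470133 (minus) for Itga2b and chrX:7967861-7968160 (minus) for Gata1.
Pf4: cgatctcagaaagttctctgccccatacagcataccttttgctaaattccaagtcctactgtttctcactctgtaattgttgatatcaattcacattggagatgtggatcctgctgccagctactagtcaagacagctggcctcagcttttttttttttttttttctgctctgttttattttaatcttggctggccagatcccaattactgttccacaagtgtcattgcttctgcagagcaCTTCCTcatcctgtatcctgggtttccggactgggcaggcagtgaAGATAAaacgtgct
Ppbp: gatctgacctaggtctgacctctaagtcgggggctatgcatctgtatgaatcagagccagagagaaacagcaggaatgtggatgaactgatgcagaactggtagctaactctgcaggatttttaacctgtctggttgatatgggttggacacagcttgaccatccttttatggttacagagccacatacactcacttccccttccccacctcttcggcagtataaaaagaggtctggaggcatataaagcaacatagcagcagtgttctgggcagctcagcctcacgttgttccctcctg
Itga2b: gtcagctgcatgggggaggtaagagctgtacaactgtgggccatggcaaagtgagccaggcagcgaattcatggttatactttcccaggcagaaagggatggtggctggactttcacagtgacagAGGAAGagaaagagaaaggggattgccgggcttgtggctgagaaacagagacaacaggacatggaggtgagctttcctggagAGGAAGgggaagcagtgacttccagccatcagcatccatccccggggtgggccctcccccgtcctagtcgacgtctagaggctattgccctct
Gata1: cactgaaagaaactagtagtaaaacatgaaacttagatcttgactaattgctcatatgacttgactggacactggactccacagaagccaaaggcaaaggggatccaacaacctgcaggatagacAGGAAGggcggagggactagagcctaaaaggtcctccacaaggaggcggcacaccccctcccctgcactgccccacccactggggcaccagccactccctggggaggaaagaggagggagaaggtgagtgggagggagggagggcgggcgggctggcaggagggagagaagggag
The Pf4 window held 1 GATA word, on the strand of the gene at bases 287 to 292 of the window, and 1 ETS word on the other strand at bases 242 to 247. The Itga2b window held 2 ETS words, the Gata1 window 1, and the Ppbp window none of either kind. A GATA word was found in 29.8% of all 32851 promoter windows of the table and an ETS word in 46.5%. Among the 88 genes other than Pf4 that were at least 2-fold higher in intermediate than in low cells in both libraries (below), 75 matched the table with 95 windows, of which 18.9% held a GATA word and 60.0% an ETS word. For all 6213 genes compared, 5016 of them matched, these shares were 17.9% and 57.3%. The 63 genes at least 2-fold lower in both libraries, 45 of them matched with 59 windows, had 23.7% and 49.2%. A match is a run of letters and not a measured binding site.

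Intermediate cells were compared with low cells to see which genes go with a Pf4 share of 0.3% and more. Genes were counted where either group reached 20 CPM. Of 5688 such genes in DMSO, 110 (1.93%) were at least 2-fold higher in intermediate cells and 101 (1.78%) at least 2-fold lower, on the scale of CPM plus 1 and with Pf4 counted among them. In RO-3066 the counts were 163 (2.79%) and 113 (1.93%) of 5852. Between the libraries, 89 of the higher genes were shared, 80.9% of the DMSO list and 54.6% of the RO-3066 list, as were 63 of the lower ones, 62.4% and 55.8%. The median log2 ratio over all genes compared was 0.02 in DMSO and -0.03 in RO-3066. Of the 88 shared higher genes other than Pf4, 7 were on the list of platelet receptors, 8 on that of granule cargo, 8 on that of platelet signalling, 6 on that of the cytoskeleton and 3 on that of transcription factors, while 51 were on no list. The 63 shared lower genes included 4 of 19 stem cell surface genes and 3 of 20 stem cell transcription factors and regulators. Ikzf2, Hbb-bt and Cox4i2 were on other lists, and 53 genes were on no list.

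Receptors of megakaryocytes and platelets had the highest median among the lists of genes examined. Of the 20 listed, 15 reached 5 CPM in DMSO, of which 13 were at least 1.5-fold higher in intermediate than in low cells and 2 lay within 1.5-fold. In RO-3066, 17 reached it and 15 were higher. Over all genes with 5 CPM, 4.40% were at least 1.5-fold higher in DMSO and 6.05% in RO-3066, and 7.51% and 7.65% at least 1.5-fold lower. The median log2 ratio of the list was 1.91 in DMSO and 1.67 in RO-3066, against -0.01 and -0.05 for all genes. These lists were drawn up knowing that such genes move in these data, so the counts describe them and lend no support of their own.

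Itgb3, the beta chain that pairs with Itga2b in the fibrinogen receptor, was at 8.05, 62.8 and 179.6 CPM in DMSO and 21.2, 102 and 194 CPM in RO-3066. Intermediate cells held 7.79-fold (7.22 to 8.42) and 4.83-fold (4.58 to 5.09) the level of low cells. Treml1, a receptor kept in platelet granules, was at 3.55, 37.9 and 96.8 CPM in DMSO and 20.5, 132 and 233 CPM in RO-3066, ratios of 10.7-fold (9.57 to 12) and 6.44-fold (6.12 to 6.77), so that its level in the low cells of RO-3066 was over 5 times that in the low cells of DMSO. Subunits of the receptor for von Willebrand factor were also higher. Gp1bb stood at 1.86, 22 and 61.2 CPM in DMSO and at 4.74, 35.8 and 67 CPM in RO-3066. Gp9 had 21.2, 65.8 and 113 CPM in DMSO and 50.1, 92.8 and 118 CPM in RO-3066, and Gp5 7.78, 43.6 and 75.7 CPM in DMSO and 20.7, 80.6 and 119 CPM in RO-3066. For these 3 genes the ratio of intermediate to low cells lay between 1.85-fold (Gp9 in RO-3066) and 11.8-fold (Gp1bb in DMSO). The selectin Selp, which platelets bring to their surface on activation, was at 7.91, 39.2 and 107 CPM in DMSO and 22.9, 75.1 and 109 CPM in RO-3066.

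Other receptors moved less between low and intermediate cells, or were rare in intermediate cells. Cd9, a tetraspanin of the platelet surface, went from 201 to 462 CPM between low and intermediate DMSO cells and from 234 to 467 CPM in RO-3066. Clec1b, the receptor for podoplanin, was rare in intermediate cells. It stood at 0.351, 7.35 and 40.5 CPM in DMSO and 0.589, 7.19 and 34.3 CPM in RO-3066, so that high cells held over 4 times the level of intermediate cells in each library. Ly6g6f, another platelet receptor, was at 0.105, 1.28 and 16 CPM in DMSO and 0.318, 8.04 and 46.9 CPM in RO-3066.

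Granule and coagulation cargo without Pf4 was the next group. Of 21 genes found, 15 reached 5 CPM in DMSO and 11 of these were at least 1.5-fold higher in intermediate than in low cells, with none lower. In RO-3066, 14 of 18 were higher and none lower. The medians were 1.35 and 1.26 on the log2 scale. Vwf, von Willebrand factor, the adhesive protein of platelet granules, was at 9.54, 47.2 and 139.5 CPM in DMSO and 19.9, 105 and 188 CPM in RO-3066. Its intermediate cells held 4.95-fold (4.59 to 5.34) and 5.25-fold (4.98 to 5.54) the level of low cells. Rab27b, a small GTPase of granule release, was at 26.6, 112 and 265 CPM in DMSO and 44.7, 203 and 356 CPM in RO-3066, and Plek, pleckstrin, a substrate of protein kinase C in platelets, at 45.2, 224 and 512 CPM in DMSO and 88.1, 304 and 489 CPM in RO-3066. Both were over 3-fold higher in intermediate than in low cells of each library. Serpine2, a protease inhibitor of granules, was at 2.49, 24.4 and 111 CPM in DMSO and 9.87, 56.5 and 124 CPM in RO-3066, and Slc35d3, needed for dense granules, at 2.87, 25.8 and 54.7 CPM in DMSO and 4.58, 24.1 and 33.9 CPM in RO-3066. Srgn, the proteoglycan that packs granule contents in many blood cells, was not part of this change, with 589.9, 548 and 430.0 CPM in DMSO and 680.2, 616 and 566 CPM in RO-3066.

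Ppbp, the precursor of several platelet chemokines, lies at chr5:90768518-90770063 (mm10, plus strand), 2371 bases before the start of Pf4 at chr5:90772435-90773383 on the same strand. It was at 1.67, 6.12 and 91.2 CPM in DMSO and 2.66, 23.2 and 192 CPM in RO-3066. Intermediate DMSO cells thus held 0.0672-fold the level of high cells, and those of RO-3066 0.121-fold. A Ppbp UMI was found in 4.98% (3.71 to 6.54) of thinned intermediate DMSO cells and 13.5% (10.5 to 17.0) of those of RO-3066, against 1.5% and 2.20% of low cells and 31.8% and 55.9% of high cells (14.5%, 49.1%, 3.68%, 8.43%, 63.8% and 90.5% without thinning). The next genes on either side, Cxcl5 and Cxcl3, were below 1 CPM in the intermediate cells of both libraries, and Cxcl5 reached 7.24 and 5 CPM in high cells. Next to the 5968 and 6035 CPM of Pf4, its neighbours were thus rare in intermediate cells.

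Genes of platelet signalling had medians of 0.93 in DMSO and 1.07 in RO-3066 on the log2 scale, with 13 of 21 at least 1.5-fold higher than in low cells in each library and none lower. Rap1b, the small GTPase that switches the fibrinogen receptor to its binding state, was at 169.7, 712 and 1076 CPM in DMSO and 241, 755 and 837 CPM in RO-3066. Intermediate cells held 4.2-fold (4.12 to 4.27) and 3.13-fold (3.08 to 3.18) the level of low cells. Lat, an adaptor of collagen receptor signalling, was at 31.8, 96.6 and 190.0 CPM in DMSO and 43.3, 143 and 228 CPM in RO-3066, and Gucy1a1, a subunit of the receptor for nitric oxide, at 24.3, 75.6 and 124 CPM in DMSO and 45.4, 154 and 182 CPM in RO-3066. Prkar2b, a regulatory subunit of protein kinase A, was at 128, 373 and 459 CPM in DMSO and 166, 375 and 399.7 CPM in RO-3066. Its level in intermediate cells was within 1.5-fold of that in high cells. Rasgrp2, the exchange factor that activates Rap1, behaved otherwise: at 54.1, 72.5 and 143 CPM in DMSO and 38.4, 93.7 and 141 CPM in RO-3066, it was 1.34-fold the low level in DMSO and 2.44-fold in RO-3066.

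Cytoskeletal genes had medians of 0.57 and 0.79, with 7 of 14 and 11 of 15 at least 1.5-fold higher and none lower. Tmsb4x, thymosin beta 4, which binds actin monomers, was the most abundant of them at 2891, 6607 and 11143 CPM in DMSO and 2962, 7041 and 10216 CPM in RO-3066. Tpm4, a tropomyosin of platelet formation, was at 18.1, 74 and 219 CPM in DMSO and 21.1, 88.4 and 181 CPM in RO-3066, with ratios to low cells of 4.09-fold (3.86 to 4.33) and 4.19-fold (3.97 to 4.42). Tuba8, an alpha tubulin of the megakaryocyte lineage, was at 41.9, 109.9 and 130.2 CPM in DMSO and 54, 113 and 129 CPM in RO-3066. A pair of listed cytoskeletal genes was nearly absent. Tubb1, the beta tubulin of the platelet marginal band, had 1 UMI in all intermediate cells of DMSO and 2 in those of RO-3066, and Myl9, a myosin light chain, was below 1 CPM in both.

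Genes outside the lists were also far above low cells. Lilrb4a, an inhibitory receptor of leukocytes, was at 2.35, 33.6 and 95.3 CPM in DMSO and 5.39, 66.7 and 125 CPM in RO-3066, and Mrvi1 and Serpinb2 are described with the high cells. Cavin2, a coat protein of caveolae, was at 11.8, 112 and 267 CPM in DMSO and 35.5, 205 and 284 CPM in RO-3066, ratios of 9.54-fold (8.97 to 10.2) and 5.77-fold (5.55 to 6). Timp3, an inhibitor of metalloproteinases held in platelets, was at 14.4, 90.6 and 300.1 CPM in DMSO and 15.5, 119.5 and 314 CPM in RO-3066, ratios of 6.28-fold (5.92 to 6.66) and 7.73-fold (7.3 to 8.18). Ehd3, which acts in endosomal recycling, was at 11.3, 72.4 and 151 CPM in DMSO and 25, 112 and 168 CPM in RO-3066. Alox5, which makes leukotrienes, had 9.29, 59.8 and 85.9 CPM in DMSO and 25.8, 113 and 158 CPM in RO-3066.

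Transcription factors of megakaryocytes and red cells changed less than the genes of platelet proteins. Of 20, 7 were at least 1.5-fold higher in intermediate than in low DMSO cells and 1 lower, and 6 and 1 in RO-3066, with medians of 0.48 and 0.31. Zfpm1, the partner of Gata1 also known as FOG1, was at 115, 278 and 372 CPM in DMSO and 190.2, 352 and 364 CPM in RO-3066, Gfi1b at 29.9, 60.2 and 71.2 CPM in DMSO and 54.1, 106 and 114 CPM in RO-3066 and Fli1 at 81.8, 154 and 202 CPM in DMSO and 97.2, 147 and 143 CPM in RO-3066. All 3 were within 1.5-fold of their level in high cells. Nfe2, needed for platelet release, did not move with the Pf4 share by 1.5-fold, at 69.7, 70.7 and 75 CPM in DMSO and 91, 109 and 114 CPM in RO-3066. The lower member was Ikzf2, a zinc finger factor of the Ikaros family, at 28, 11.2 and 12.5 CPM in DMSO and 28.6, 8.79 and 9.45 CPM in RO-3066.

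About 1 in 2 of the stem cell genes was lower in intermediate than in low cells. Of stem cell transcription factors and regulators, 9 of 17 were at least 1.5-fold lower and 1 higher in DMSO, and 10 of 18 and 1 in RO-3066, with medians of -0.73 and -0.86. Hlf, a factor of the self-renewing stem cell, was at 93.6, 16.5 and 8 CPM in DMSO and 108, 15.4 and 9.05 CPM in RO-3066. Intermediate cells held 0.176-fold (0.162 to 0.191) and 0.142-fold (0.131 to 0.155) the level of low cells. Mecom, which encodes Evi1, was at 97.3, 24.5 and 11 CPM in DMSO and 96.9, 22.7 and 13.2 CPM in RO-3066, and Hoxa9, a homeobox factor of stem and progenitor cells, at 51.9, 15.8 and 4.2 CPM in DMSO and 38.7, 10.3 and 5.3 CPM in RO-3066. Each was over 3-fold lower in intermediate than in low cells of both libraries. Meis1, a cofactor of Hox proteins that megakaryocytes also express, was within 1.5-fold, at 113, 120.1 and 118 CPM in DMSO and 147, 124 and 105 CPM in RO-3066.

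Of stem cell surface genes, 8 of 16 were at least 1.5-fold lower and 3 higher in DMSO, and 8 of 17 and 1 in RO-3066, with medians of -0.66 and -0.44. Ly6a, which encodes Sca-1, was at 33, 2.81 and 0.958 CPM in DMSO and 21.3, 2.24 and 2.17 CPM in RO-3066, or 0.0852-fold (0.0697 to 0.103) and 0.105-fold (0.0835 to 0.131) of the low level. Procr, which encodes the stem cell marker EPCR, was at 7.41, 0.495 and 0.197 CPM in DMSO and 6.14, 0.825 and 1.43 CPM in RO-3066, near the lower end of what was measured. Cd34 was at 97.7, 27.4 and 22.4 CPM in DMSO and 72.2, 25 and 26.6 CPM in RO-3066, as low in intermediate as in high cells, while Kit, the stem cell factor receptor, was at 92.8, 47.2 and 18.8 CPM in DMSO and 132, 62.8 and 31.1 CPM in RO-3066 and was lower still in high cells. Slamf1, which encodes CD150 and is kept by stem cells with a megakaryocyte bias, was at 15, 24.4 and 19.1 CPM in DMSO and 14.7, 19.9 and 21.9 CPM in RO-3066, 1.62-fold and 1.36-fold the low level. In DMSO cells of 40000 to 120000 UMIs the log2 ratio of Slamf1 was 0.0046 in place of 0.66. Vldlr, a lipoprotein receptor listed with the stem cell genes, was 2.43-fold and 3.39-fold the low level.

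Outside the lists, Myl10, Cd24a, Sox4 and Vim stood lowest against low cells. Myl10, a myosin light chain, was at 125, 13.9 and 5.89 CPM in DMSO and 94.1, 12.5 and 10.4 CPM in RO-3066. Cd24a, a surface glycoprotein of early blood cells, was at 108, 17 and 3.8 CPM in DMSO and 84.2, 12.6 and 6.47 CPM in RO-3066, Sox4, a factor of progenitors and lymphoid cells, at 102, 17.1 and 6.11 CPM in DMSO and 66.2, 11.9 and 5.89 CPM in RO-3066, and the intermediate filament gene Vim at 304, 58.8 and 15.4 CPM in DMSO and 175, 21 and 13.5 CPM in RO-3066. All 4 held under 0.2-fold of the low level in both libraries. Spi1, the myeloid factor PU.1, named here after its values were seen, was at 78.2, 36.3 and 22.4 CPM in DMSO and 103, 47.8 and 41.9 CPM in RO-3066.

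Markers of other blood lineages were examined as lists. Of 20 neutrophil and monocyte markers, 4 had no UMI in intermediate DMSO cells and 5 none in those of RO-3066, and their summed share of UMIs was 0.0162% and 0.0241%, against 0.0238% and 0.0230% in low cells. Mpo, myeloperoxidase, had 1 UMI in the intermediate cells of DMSO and 0 in those of RO-3066. Ms4a3, a marker of granulocyte and monocyte progenitors, went the other way at 4.99, 21.4 and 20.2 CPM in DMSO and 8.76, 25.8 and 26.2 CPM in RO-3066, 4.28-fold (3.85 to 4.78) and 2.94-fold (2.69 to 3.22) the low level. Of 22 red cell markers, 6 and 4 had no UMI, and the summed share was 0.0584% and 0.0770%, against 0.0933% and 0.142% in low cells. Klf1, the red cell factor, was at 1.69 and 4.5 CPM in intermediate cells, and a UMI was found in 2.64% and 6.32% of thinned intermediate cells against 1.02% and 1.73% of low cells (6.16%, 27.2%, 2.12% and 6.25% without thinning). Of 9 red cell genes with 5 CPM, 4 were at least 1.5-fold higher in intermediate than in low cells of each library, Epor and Aqp1 in both, and 2 lower, Hbb-bt and Car2. The median log2 ratio of these 9 genes was 0.55 in DMSO and 0.37 in RO-3066, of the opposite direction to the summed share. The fall of the summed share lay mostly in Hbb-bt. Hbb-bt, an adult beta globin, was at 313, 38.8 and 18.4 CPM in DMSO and 624, 165 and 185 CPM in RO-3066. A Hbb-bt UMI was found in 19.8% (17.4 to 22.5) and 48.4% (43.7 to 53) of thinned intermediate cells, against 45.0% and 65.3% of low cells (37.7%, 85.9%, 59.3% and 79.7% without thinning). Marker lists of mast cells and basophils, of lymphoid, dendritic and of endothelial or stromal cells each summed to under 0.01% of the UMIs of intermediate cells in both libraries. The part of other cell types in the differences was not tested.

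Depth bears on these comparisons with low cells. The receptor list had medians of 1.35 in DMSO cells of 15000 to 40000 UMIs and 1.26 in those of 40000 to 120000, and of 1.76 and 1.27 in RO-3066, where the shallower range holds 31 intermediate cells. The cargo list had 1.01 and 1.24 in DMSO and 1.04 and 0.97 in RO-3066. Stem cell transcription factors had -0.58 and -0.79 in DMSO and -0.89 and -0.68 in RO-3066. Among genes whose ratios are printed, several moved by over 1.5 times with no change of direction. Treml1 went from a log2 ratio of 3.10 to 2.30 in the deeper DMSO cells, and from 2.63 to 3.84 and 1.88 in the shallower and deeper RO-3066 cells. Cavin2 went from 3.15 to 2.14 in the deeper DMSO cells, and from 2.49 to 4.20 and 1.82 in RO-3066. In the shallower DMSO cells Itgb3 had 2.06, Timp3 1.77 and Vwf 1.55 in place of 2.82, 2.57 and 2.19. In the deeper cells Ly6a had -2.22 in DMSO in place of -3.16, Hlf -1.89 in RO-3066 in place of -2.74, and Ms4a3 1.31 in DMSO in place of 1.90. In the shallower RO-3066 cells Ms4a3 had 2.26 in place of 1.46 and Vldlr 0.84 in place of 1.64.

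**Figure D3:**
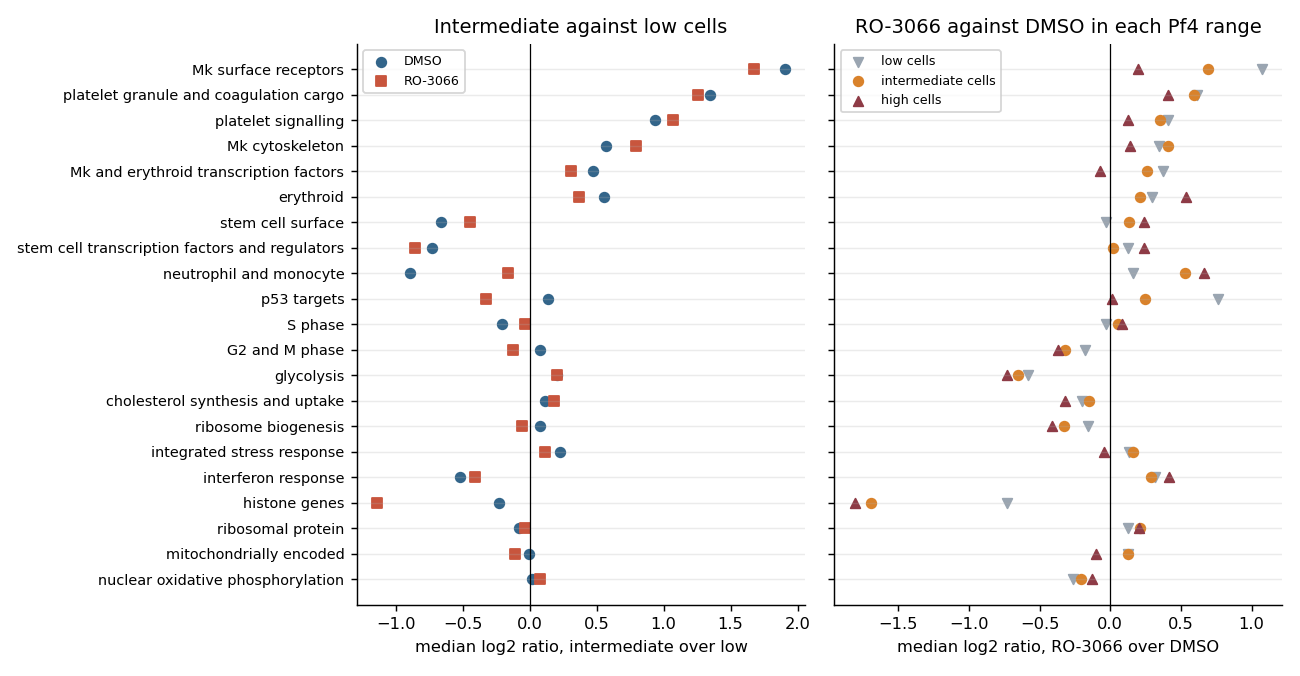
Median log2 ratio of each gene list with at least 3 members of 5 CPM, intermediate over low cells in each library (left) and RO-3066 over DMSO in each Pf4 range (right). Receptors lie highest on the left at 1.91 and 1.67, and histone genes lowest on the right in intermediate cells at -1.69.

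Set against high cells, intermediate cells differed in fewer genes. In Pf4 itself the limits also placed them nearer to high than to low cells on the log2 scale (below). In DMSO, 29 of 5611 genes (0.517%) were at least 2-fold higher in intermediate cells and 49 (0.873%) at least 2-fold lower, and in RO-3066, 3 (0.0534%) and 29 (0.516%) of 5617. The libraries shared 3 of the higher and 13 of the lower genes, 10.3% and 26.5% of the DMSO lists and 100% and 44.8% of the RO-3066 lists. In cells of 40000 to 120000 UMIs, 11 genes were higher and 21 lower in DMSO, and 4 and 37 in RO-3066. High cells had more UMIs than intermediate cells, and the part of depth was not tested. Of receptors, 15 of 18 were at least 1.5-fold lower than in high cells in DMSO and 9 of 19 in RO-3066, and of cargo 13 of 19 and 11 of 20. The background for these list counts was 3.59% lower and 2.37% higher in DMSO and 2.36% lower and 1.17% higher in RO-3066. None of the 20 transcription factors passed 1.5-fold in either library. The median log2 ratios were -1.08 and -0.56 for receptors, -1.11 and -0.75 for cargo and -0.35 and -0.06 for transcription factors.

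Besides Ppbp, genes far below high cells included Serpinb2, Tesc, Gnaz and Mrvi1. Serpinb2, a serpin that inhibits plasminogen activators, was at 0.5, 11.9 and 100.1 CPM in DMSO and 2.12, 41.8 and 114 CPM in RO-3066. Tesc, tescalcin, a calcium-binding protein active in megakaryocyte differentiation, was at 1.55, 10.1 and 56.8 CPM in DMSO and 4.9, 52.1 and 182 CPM in RO-3066. Gnaz, a G protein subunit of platelets, was at 3.44, 13 and 59.4 CPM in DMSO and 7.28, 38.4 and 89.2 CPM in RO-3066, and Mrvi1, a target of cyclic GMP signalling also known as IRAG, at 0.824, 27.4 and 118 CPM in DMSO and 1.54, 24.3 and 70.7 CPM in RO-3066. In the other direction Myb, a factor of progenitor growth that megakaryocytes lose, was at 205, 112 and 48.3 CPM in DMSO and 229, 115 and 48.1 CPM in RO-3066. Intermediate cells held 2.32-fold (2.19 to 2.46) and 2.39-fold (2.25 to 2.54) the level of high cells. Cmtm7, a membrane protein, was at 561, 359.9 and 142 CPM in DMSO and 563, 349 and 181 CPM in RO-3066, and Myc at 81.3, 60.1 and 40.4 CPM in DMSO and 78.2, 52.4 and 32.9 CPM in RO-3066.

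To place intermediate cells between the other groups, each gene's level was written as a percentage of the log2 distance from low (0%) to high cells (100%). High cells were at least 2-fold above low cells in 273 genes (4.67%) of DMSO and 297 (4.98%) of RO-3066, and at least 2-fold below in 232 (3.97%) and 222 (3.72%). Among the 198 genes higher in both libraries, intermediate cells lay at a median of 64.6% of the distance in DMSO and 74.3% in RO-3066. Among the 136 genes lower in both, the medians were 58.3% and 70.9%. Pf4, which set the groups, stood at 66.6% and 69.6%, so the genes that follow Pf4 stood about where the limits placed Pf4. On the linear scale of CPM the medians were 45.2% and 60.8% for higher genes and 76.0% and 82.5% for lower ones, with Pf4 at 30.9% and 36.0%. The order of the genes was alike in both libraries (Spearman rho over genes 0.69 for the 198 genes and 0.73 for the 136), and genes are not independent replicates.

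Among the highest positions of genes with at least 50 CPM in intermediate cells were Nos1ap at 86.2% in DMSO and 98.9% in RO-3066, Zeb2 at 76.0% and 108%, and Prkar2b at 83.7% and 92.8%. Zeb2, a factor that represses epithelial genes and acts in blood cell differentiation, was at 58, 155 and 211 CPM in DMSO and 107, 250.4 and 236 CPM in RO-3066. Nos1ap, an adaptor of neuronal nitric oxide synthase, was at 31.7, 91.3 and 108 CPM in DMSO and 30.3, 102 and 103 CPM in RO-3066. Among the lowest were Cmtm7 at 32.4% and 42.3% and Myb at 41.9% and 44.4%. Zyx, zyxin, a protein of focal adhesions, was at 63.4, 98.4 and 180.4 CPM in DMSO and 86.9, 169 and 251 CPM in RO-3066. Ppbp was at 27.7% and 47.6%. On the log2 scale Nos1ap, Zeb2 and Prkar2b thus lay near the level of high cells, while Ppbp and Zyx, and the decline of Cmtm7 and Myb, lay behind Pf4 in DMSO. The order depends on the scale. On the linear scale of CPM, where Pf4 stood at 30.9% in DMSO, Cmtm7 and Myb lay further along than Pf4. Zyx lay about level with Pf4 there, and Ppbp behind it.

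**Figure D4:**
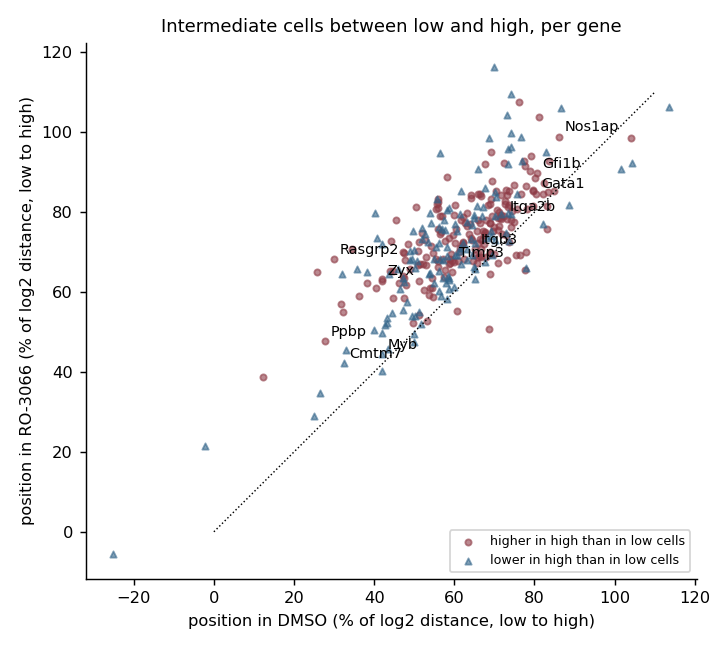
Position of intermediate cells between low (0%) and high cells (100%) on the log2 scale for 334 genes, DMSO on the horizontal and RO-3066 on the vertical axis, with circles for genes higher and triangles for genes lower in high cells and the dotted line where both libraries are equal. Most genes lie above the line. Nos1ap is at 86.2% and 98.9%, and Ppbp at 27.7% and 47.6%.

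Within the range of 0.3% to 1% most of the genes followed went on changing without a step. In DMSO, the 4 bins of 0.3 to 0.4%, 0.4 to 0.5%, 0.5 to 0.7% and 0.7 to 1% held 268, 217, 258 and 247 cells, and in RO-3066 114, 89, 121 and 136. Itga2b was at 191, 233, 266 and 314 CPM in the 4 bins of DMSO and at 385, 390.4, 435 and 474 CPM in those of RO-3066. Timp3 went from 39.2 to 142 CPM between the first and last bin in DMSO and from 72.3 to 161 CPM in RO-3066, and Itgb3 from 29.0 to 96.2 and from 80.9 to 129 CPM. Hlf went from 24.4 to 13 CPM in DMSO and from 17.5 to 12.9 CPM in RO-3066, with 19.3 CPM in the second bin there. Myb went from 146 to 87.7 and from 151 to 85.0 CPM. The linker histone Hist1h1b fell in RO-3066 mostly between the first 2 bins, at 381, 187, 165 and 178 CPM. In DMSO it was at 1478, 1605, 1299 and 1160 CPM. Gata1 was flat over the range, at 37.2, 36.5, 33.8 and 39.9 CPM in DMSO and 49.5, 48.1, 52.0 and 55.0 CPM in RO-3066. It was higher here than at lower Pf4 shares, where it went from 8.68 CPM at 0.05 to 0.1% to 31.0 CPM at 0.2 to 0.3% in DMSO and from 27.4 to 50.3 CPM in RO-3066. Above the range it went from 39.7 CPM at 1 to 1.3% to 62.5 CPM at 2% and more in DMSO and from 58.4 to 64.0 CPM in RO-3066. The median UMIs per cell moved with the bins too, rising in DMSO from 26885 in the first bin to 37781 in the last, and in RO-3066 from 67689 to 88659.

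**Figure D5:**
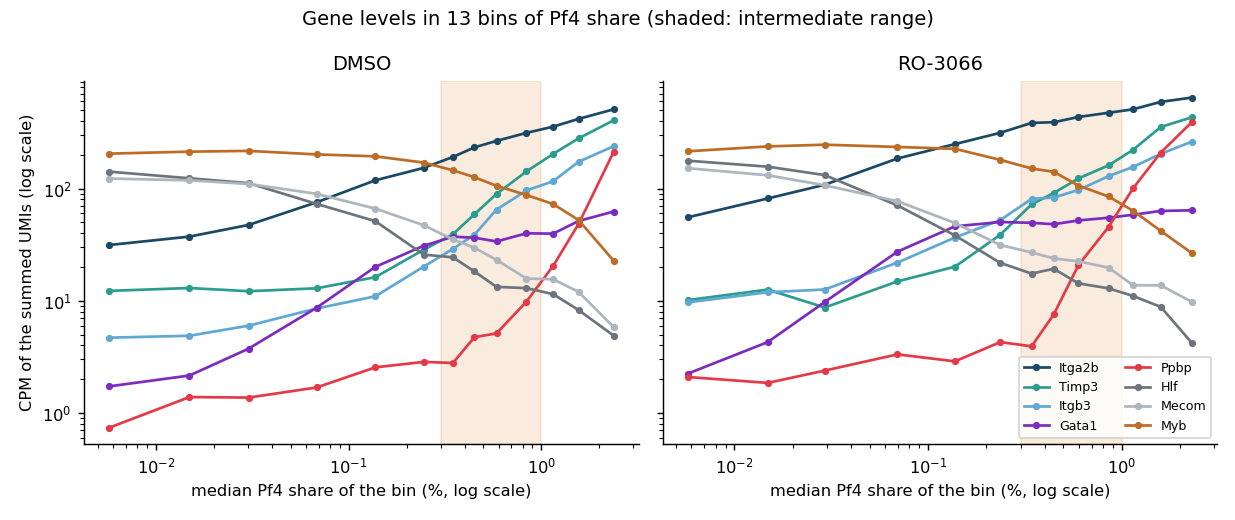
CPM of 8 genes (log axis) in 13 bins of cells by Pf4 share (log axis, median of each bin) in each library, with the intermediate range shaded. Gata1 is flat inside the shaded range, at 33.8 to 39.9 CPM in DMSO and 48.1 to 55.0 CPM in RO-3066, while Ppbp climbs from 2.79 to 9.84 CPM in DMSO and from 3.93 to 45.4 CPM in RO-3066.

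Cell by cell, intermediate cells overlapped with both neighbours. Summed over 41 receptor and cargo genes without Pf4, thinned cells held a median of 17 UMIs when low, 28 when intermediate and 43 when high in DMSO, and 21, 41 and 55 in RO-3066. The 90th percentile of low cells was passed by 64.8% (61.7 to 67.8) of intermediate DMSO cells and 83.0% (79.3 to 86.3) of intermediate RO-3066 cells. Over 37 stem cell genes the medians were 43, 30 and 26 UMIs in DMSO and 31, 24 and 23 in RO-3066. Hlf was found in 15% (12.8 to 17.3) and 11.5% (8.77 to 14.8) of thinned intermediate cells, against 52.0% and 60.3% of low cells (38.5%, 52.6%, 73.3% and 86.4% without thinning). Itga2b and Hlf were found together in 12.3% (10.3 to 14.5) and 11.3% (8.58 to 14.6) of thinned intermediate cells and in 17.0% and 29.7% of low cells (37.4%, 52.6%, 42.7% and 67.6% without thinning). Likely doublets made up 8.38% of DMSO cells with 0.2 to 0.3% Pf4 and 8.58% of those with 0.3 to 0.4%, and in RO-3066 4.40% and 4.39%.

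Among intermediate cells of 1 library, Hist1h1b and Malat1, a nuclear noncoding RNA, varied most of the genes ranked, followed by Hbb-bt, Tmsb4x and Hist1h1e. The 4884 genes ranked had a mean of at least 0.2 UMIs in thinned cells. Pf4 and unnamed, mitochondrial and ribosomal protein genes were left out. The median Fano factor (variance over mean) was 1.06 in DMSO and 1.05 in RO-3066. Hist1h1b, a linker histone made in S phase, had 12.7 and 10.7, Malat1 9.47 and 18.2, Hbb-bt 7.42 and 5.55, and Tmsb4x 8.13 and 5.39. Malat1 and Tmsb4x were also abundant, with means of 35.3 and 61.4 UMIs in DMSO and 65.3 and 70.2 in RO-3066. The part of level in these ranks was not tested. Tmsb4x also followed the Pf4 share most closely (Spearman rho over cells 0.55 and 0.56), ahead of Plek (0.33 and 0.32), while Cmtm7 (-0.24 and -0.27) and Car2 (-0.26 and -0.18) went the other way. The points share their library and were thinned to 1 depth, and the Pf4 share had a rho of 0.27 and 0.28 with the UMIs of a cell.

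Between the libraries, intermediate cells of RO-3066 were at least 2-fold above those of DMSO in 91 of 5761 genes (1.58%) and at least 2-fold below in 57 (0.989%). For low cells these counts were 27 (0.469%) and 21 (0.365%) of 5751, and for high cells 133 (2.31%) and 73 (1.27%) of 5769. The groups differ in size and depth, and whether the response differs between them was not tested. Pf4 was at 5968 and 6035 CPM in intermediate cells, so the 2 sets were matched in the gene that chose them. The median log2 ratio over all genes was -0.08 at 20 CPM and -0.02 at 5 CPM. The 2.52-fold difference in median UMIs goes with all of these comparisons, and values in cells of like depth are given for the lists and for genes whose ratio moved by over 1.5 times with depth.

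Platelet genes were higher in the intermediate cells of RO-3066 at this equal Pf4 level. Of 17 receptors, 10 were at least 1.5-fold higher and none lower, and of 18 cargo genes 10 were higher and none lower, with medians of 0.69 and 0.59. The cargo median was 0.35 in cells of 15000 to 40000 UMIs and 0.40 in cells of 40000 to 120000. The background at 5 CPM was 9.01% higher and 4.27% lower. In low cells the receptor list had a median of 1.07 between the libraries, and in high cells 0.20, where 5 of 19 receptors were at least 1.5-fold higher. The cargo list had 0.61 in low and 0.41 in high cells. The difference between ranges was not tested. Treml1 was at 37.9 CPM in DMSO and 132 CPM in RO-3066, 3.48-fold (3.29 to 3.7), and a UMI was found in 26.0% (23.3 to 28.9) and 67.1% (62.6 to 71.4) of thinned intermediate cells, against 3.02% and 9.99% of low cells (52.0%, 98.3%, 6.84% and 23.6% without thinning). Vwf was at 47.2 and 105 CPM, 2.22-fold (2.1 to 2.35), and Itga2b 1.65-fold (1.61 to 1.7). The log2 ratio of Treml1 was 1.77, and it was 1.63 in cells of 15000 to 40000 UMIs (684 of DMSO and 31 of RO-3066) and 1.52 in cells of 40000 to 120000 UMIs (259 and 363). That of Itgb3 was 0.69 in all intermediate cells, 1.09 in the shallower and 0.30 in the deeper ones. The receptor list had medians of 0.66 and 0.50 in these 2 depth ranges. Ppbp, 3.79-fold (3.28 to 4.4) over all intermediate cells, had a log2 ratio of -0.0023 in the shallower cells and 1.27 in the deeper ones.

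Other genes higher in RO-3066 were Tesc, Hbb-bt, Apoe, Cotl1, Pdzk1ip1 and Cbfa2t3. Tesc was at 10.1 and 52.1 CPM in intermediate cells of DMSO and RO-3066, 5.14-fold (4.61 to 5.75). Hbb-bt was at 38.8 and 165 CPM. Cotl1, which binds actin filaments, had 29.3 and 96.5 CPM, 3.29-fold (3.08 to 3.52), and was not higher in intermediate than in low cells of DMSO (0.842-fold) but was in RO-3066 (1.69-fold). Cbfa2t3, a corepressor in Gata1 complexes, was at 98.4 and 243 CPM. Apoe, the lipid carrier, was higher by 3.81-fold (3.54 to 4.11) in intermediate cells and by 3.93-fold in low cells. In cells of 15000 to 40000 UMIs the log2 ratio of Tesc was 1 in place of 2.25, that of Cotl1 0.80 in place of 1.69 and that of Hbb-bt 1.23 in place of 2.06. In cells of 40000 to 120000 UMIs they were 2.11, 1.91 and 1.78, and that of Apoe was 2.73 in place of 1.89.

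Among lists with at least 3 members of 5 CPM, histone genes had the lowest median between RO-3066 and DMSO in intermediate cells. Of 69 histone genes, 45 reached 5 CPM, and all 45 of these were at least 1.5-fold lower in the intermediate cells of RO-3066 than in those of DMSO, with a median log2 ratio of -1.69 (-0.32 in cells of 15000 to 40000 UMIs and -1.45 in cells of 40000 to 120000). In low cells the median was -0.73, and in high cells it was -1.81, with 46 of 46 genes at least 1.5-fold lower. Whether the ranges differ was not tested. Over all genes at 5 CPM, 4.27% were at least 1.5-fold lower in the intermediate cells of RO-3066. The summed share of histone UMIs was 0.517% in the intermediate cells of DMSO and 0.136% in those of RO-3066. It was 0.592% and 0.301% in low cells and 0.460% and 0.111% in high cells. Hist1h1b was at 1567, 1348 and 1074 CPM in DMSO and 547, 219 and 160.0 CPM in RO-3066. In RO-3066 intermediate cells held 0.401-fold (0.391 to 0.41) the low level and in DMSO 0.86-fold (0.852 to 0.869). Thinned intermediate cells had a median of 52 histone UMIs in DMSO and 8 in RO-3066, where 41 of 43 histone genes were at least 1.5-fold below low cells (median -1.14). In cells of 15000 to 40000 UMIs the latter median was 0.27, of the opposite sign, on 31 intermediate cells. In cells of 40000 to 120000 UMIs it was -0.83. The part of depth in these values was not tested. Histone genes come in near-identical copies whose reads counting may split, and most of their transcripts lack the poly(A) tail that 3' libraries capture.

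Genes of the cell cycle moved less. Of 53 genes of G2 and M phase with 5 CPM, 6 were at least 1.5-fold lower in intermediate cells of RO-3066 than of DMSO and none higher. Over all genes at 5 CPM, 4.27% were lower and 9.01% higher. The median of the list was -0.32 (-0.14 in cells of 15000 to 40000 UMIs and -0.36 in cells of 40000 to 120000). It was -0.18 in low and -0.37 in high cells. Cdk1, the kinase that starts mitosis, was at 218, 232 and 245 CPM in DMSO and 236, 274 and 285 CPM in RO-3066, and Ccnb1, its cyclin, at 91.5, 114 and 113 CPM in DMSO and 101, 114 and 109 CPM in RO-3066. Plk1, a mitotic kinase, was at 80.1, 94.4 and 97.8 CPM in DMSO and 49.6, 54.9 and 47.2 CPM in RO-3066. Against low cells none of these 3 differed by 1.5-fold in either library. Within the list, 2 genes went against each other along the Pf4 share: Ect2, needed for the cleavage furrow, was at 22.6, 4.56 and 0.761 CPM in DMSO and 18.6, 3.11 and 1.29 CPM in RO-3066, and Ckap2l, a spindle protein, at 69.2, 184 and 323 CPM in DMSO and 75.8, 231 and 324 CPM in RO-3066. Kif23, a kinesin of the midzone in cytokinesis, was at 45, 24.5 and 19.7 CPM in DMSO and 36.4, 16.3 and 12 CPM in RO-3066.

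Glycolysis genes were lower in RO-3066, with 11 of 20 at least 1.5-fold lower in intermediate cells, none higher and a median of -0.65 (-0.96 in cells of 15000 to 40000 UMIs and -0.67 in cells of 40000 to 120000). Over all genes at 5 CPM, 4.27% were lower and 9.01% higher in intermediate cells. The glycolysis median was alike in the other ranges, at -0.59 in low and -0.73 in high cells. Between low and intermediate cells 1 glycolysis gene was at least 1.5-fold higher in DMSO, Slc16a3, and 3 in RO-3066. Slc16a3, the lactate exporter, was at 38.3, 87.5 and 127 CPM in DMSO and 10.5, 37.8 and 64.3 CPM in RO-3066. It was thus higher in intermediate than in low cells of both libraries (2.29-fold and 3.61-fold) and lower in RO-3066 than in DMSO (0.432-fold). Bnip3, a receptor of mitophagy, was at 86.2, 96.9 and 107 CPM in DMSO and 26.1, 25.3 and 26.2 CPM in RO-3066, and Plod2, a collagen lysine hydroxylase, at 27.2, 54.5 and 67.3 CPM in DMSO and 11.8, 13.2 and 13.5 CPM in RO-3066. Of p53 target genes, 5 of 19 were at least 1.5-fold higher in the intermediate cells of RO-3066 and none lower, against 9.01% and 4.27% of all genes. The median of the p53 targets was 0.25 (0.45 in cells of 15000 to 40000 UMIs and 0.24 in cells of 40000 to 120000). It was larger in low cells, at 0.76 with 11 of 20 at least 1.5-fold higher, and 0.01 in high cells with 5 of 19 higher. The difference between ranges was not tested. Cdkn1a, the p53 target that encodes the cell cycle inhibitor p21, was at 18.1, 30.9 and 33.9 CPM in DMSO and 53.8, 44.5 and 55.5 CPM in RO-3066, a ratio between libraries of 1.44-fold (1.34 to 1.55) in intermediate and 2.97-fold in low cells. Dlk1, an imprinted surface protein of the Notch ligand family, was at 21.8, 43.3 and 37.4 CPM in DMSO and 1.19, 1.76 and 1.18 CPM in RO-3066. In cells of 15000 to 40000 UMIs the log2 ratio of Dlk1 between libraries was -2.63 in place of -4.01, and that of Bnip3 -2.68 in place of -1.90.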

How the data were processed

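The files hold UMI counts of genes in barcodes, deposited by the authors without scaling, for 1 DMSO and 1 RO-3066 library. The build was mm10 and the software Cell Ranger 5.0.1, per the submitters' processing notes, although 7.1.0 stands in the file headers; whether intron reads were counted is not given in the sources used here. Of 32285 gene identifiers, 32235 were found in GENCODE vM21 (mm10), which gave coordinates; 40 identifiers that shared a symbol are named by identifier.

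Barcodes were filtered and grouped by Pf4 share as stated in the report; 26 DMSO and 84 RO-3066 barcodes failed. Doublets were called, at a rate of 0.8% per 1000 barcodes, as the cells with most simulated doublets among their 50 nearest neighbours, and stayed in the sums. UMIs were summed over cells and scaled to CPM. Counts of genes use the log2 ratio of CPM plus 1, among genes with at least 20 CPM in either group (5 CPM for lists); printed folds are ratios of CPM. With 1 library per group no test was made. Intervals (95%) are exact conditional Poisson for folds and Clopper-Pearson for shares. The calculation was tested on simulated data.

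The members and gene lists were chosen with earlier results of these data known. Named genes are the 3 markers and a fixed set, the genes with the highest and lowest ratios at 50 CPM or more in each comparison, the highest and lowest positions, the most variable genes, and 3 members of each list. Genes named besides these, such as Gp9, Gp5, Cd9, Clec1b, Ly6g6f, Selp, Srgn, Nfe2, Fli1, Zfpm1, Kit, Slamf1, Meis1, Klf1, Mpo, Tubb1, Myl9 and Spi1, were added for their role after values were seen. Some genes that the rule takes are not reported here.

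Results were recomputed with cells thinned to 10000 UMIs, with cells of 15000 to 40000 UMIs, with scaling by the median ratio, with every cell at 1 weight, with doublets left out, with totals without Pf4, with minimums of 5 and 50 CPM, a pseudocount of 5, Pf4 limits of 0.4% and 0.8%, and for the shares of cells all barcodes and a mitochondrial limit of 5%. Cells of 40000 to 120000 UMIs and linear positions were added after the data were seen. Python 3.11.15, numpy 2.4.6, scipy 1.17.1, pandas 2.3.3, scikit-learn 1.9.0 and matplotlib 3.10.9 were used.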

Additional observations from a re-analysis of the deposited data

How the results depend on the processing

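No paired analysis was possible because each treatment has 1 library. Shares of intermediate cells stayed between 15.7% and 16.2% in DMSO and between 11.7% and 12.2% in RO-3066. Counts of 2-fold genes moved with the minimum level, as fewer or more genes were compared. At 5 CPM, intermediate over low gave 181 higher and 296 lower in DMSO and 285 and 309 in RO-3066; intermediate over high gave 80 and 103 in DMSO and 10 and 71 in RO-3066; RO-3066 over DMSO gave 265 and 87, or 75.3% higher in place of 61.5%. At 50 CPM they were 54 and 43, 76 and 49, 9 higher in DMSO, 1 and 15 in RO-3066, and 28 and 31. Other settings moved counts for which the cause was not tested. Thinned cells gave 7 and 49 for intermediate over high in RO-3066, limits of 0.4% and 0.8% gave 5 higher there, and a pseudocount of 5 gave 60 higher for RO-3066 over DMSO. Median-ratio scaling gave 114 and 48 for RO-3066 over DMSO, or 70.4% higher.

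Depth was the setting that changed most directions. In cells of 15000 to 40000 UMIs, with 31 intermediate and 15 high cells left in RO-3066, the counts were 71 higher in DMSO and 174 lower in RO-3066 against low cells, and 32 lower in DMSO and 223 higher and 313 lower in RO-3066 against high cells. In cells of 40000 to 120000 UMIs, added after the data were seen, they were 100 and 62 in RO-3066 against low cells and 11 and 21 in DMSO against high cells. Among values that counted as changed, directions turned in the shallower cells only, and the cause was not tested. Intermediate over low in RO-3066, the histone list had a median log2 ratio of 0.27, Hist1h1b 0.50, Hist1h1e 0.40, Hist1h1d 0.31, Hist1h2ae 0.60, Hist2h2ac 0.26, Hist1h1c 0.62, Hist2h2bb 0.019, Hist1h4d 0.015, Hist1h2ap 0.77, Hist1h1a 0.41 and Pclaf 0.032. For RO-3066 over DMSO they were Ppbp (-0.0023), Serpinb2 (-0.16) and Hist1h2ap (0.0099). Of 759 single-gene ratios 670 kept their sign in the shallower cells, 710 in the deeper cells and 731 in thinned cells. Smaller ratios, which did not count as changed, turned in the deeper cells too. Intermediate over low in DMSO, Cdk1 had a log2 ratio of -0.13 there in place of 0.09 and Ccnb1 -0.15 in place of 0.32. Plk1 had -0.18 in place of 0.23, and the list of G2 and M phase a median of -0.17 in place of 0.08.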

Other observations

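A few genes were highest in intermediate cells, above both low and high cells, rather than between them. Of the 6213 genes compared, 5 were at least 25% above both groups in both libraries, a minimum chosen after values were seen, and none had the opposite pattern. Genes also had to reach 20 CPM in a Pf4 range of each library. Cdk6, a kinase of G1 that also acts in blood cell differentiation, was at 134, 208 and 163 CPM in DMSO and 158, 225 and 164 CPM in RO-3066. Adgrl2, an adhesion G protein-coupled receptor, was at 26.2, 49.9 and 39.3 CPM in DMSO and 27.5, 45.7 and 32.2 CPM in RO-3066. Sipa1l1, which acts on Rap GTPases, was at 35.3, 61.6 and 46.6 CPM in DMSO and 40.1, 69.7 and 48.3 CPM in RO-3066. Icam4, an adhesion protein of red cells, was at 13.1, 26.1 and 16.2 CPM in DMSO and 15.7, 24.8 and 18.1 CPM in RO-3066. Nkg7, a granule protein of cytotoxic cells, was at 37.5, 51.9 and 30.2 CPM in DMSO and 52.4, 94.3 and 74.1 CPM in RO-3066. Against low cells of DMSO, Nkg7 had a log2 ratio of 0.46 in all cells and 0.30 in cells of 40000 to 120000 UMIs. The part of depth in the pattern of these 5 genes was not tested. Fgf3, a growth factor gene chosen with its values known, was lower in high than in low cells and had its highest level in intermediate cells, at 53.2, 76.2 and 12.3 CPM in DMSO and 33.4, 35.7 and 10.2 CPM in RO-3066.

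Some interferon response genes were lower in intermediate than in low cells, with 7 of 16 at least 1.5-fold lower and none higher in DMSO (median -0.52) and 5 of 18 lower and 1 higher in RO-3066 (median -0.40). Over all genes at 5 CPM, 7.51% and 7.65% were lower. Bst2, tetherin, was at 166, 109 and 87 CPM in DMSO and 156, 101 and 89.1 CPM in RO-3066, and the immunoproteasome gene Psmb8 at 404, 253 and 163 CPM in DMSO and 401, 295 and 243 CPM in RO-3066. Ifitm1, an interferon-induced membrane protein listed with the stem cell surface genes, was at 1842, 988 and 581 CPM in DMSO and 667, 376 and 325 CPM in RO-3066. Genes of ribosomal proteins (79 of 79), ribosome biogenesis (25 of 25) and cholesterol synthesis (22 of 22) all lay within 1.5-fold of low cells in both libraries.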
